A study of Homo sapiens with 6 samples.

Results

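The cytosolic ribosomal protein genes were taken as every gene symbol of the form RPL or RPS followed by a number, with an optional A, X or L, together with RPSA and RPLP0 to RPLP2. This rule used names only and found 81 of the 78932 genes in the count table, 32 of the small and 49 of the large ribosomal subunit. RNA was sequenced from cells labelled HCC1937, the name of an established human breast cancer cell line of epithelial origin used as a model of triple negative disease. For 3 libraries the cells were grown for 24 h with 8 nM docetaxel, a taxane that stabilises microtubules, and 3 libraries were controls, labelled only as con with no vehicle named. Each group has 3 libraries labelled as biological replicates, and since no source says that these were separate cultures, the p-values reflect only how far the libraries of a group lie apart. All values come from cells with this 1 label, at 1 dose and 1 time.

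Gene counts totalled 38622062 to 39181848 per library with docetaxel and 39033097 to 41675186 per library in control. Of the 81 genes, 80 had enough reads to be tested among 18040 genes, and RPL10L had 0 reads in all 6 libraries, which allows at most 3 reads per library by counting error alone. KRT8 and KRT18, keratins of simple epithelia, averaged 1965 and 666 CPM over the 6 libraries (counts per 1e6 counts of a library), and VIM averaged 362 CPM. The epithelial markers EPCAM, CDH1 and KRT19 averaged 0.0666, 0.689 and 0.105 CPM, and the basal keratins KRT5 and KRT14 averaged 0.0386 and 0.127 CPM, so 5 of the 8 marker genes of the line were at or near 0. These 5 values go against the epithelial origin of the line named on the label, so the cells are called here by their label. EEF1G, which codes for a translation elongation factor subunit and was chosen after its values were seen, was also listed with 0 reads in all 6 libraries. Whether these low values come from the cells or from the counting was not tested. Levels are shares of each library's poly(A) RNA reads, so fewer cells and less RNA per cell cannot be told apart.

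A cytosolic ribosome holds a small subunit that reads the mRNA and a large subunit that forms peptide bonds, and most ribosomal proteins are present in a single copy per ribosome. In vertebrates the mRNAs of these proteins begin with a 5′ terminal oligopyrimidine tract (TOP), an unbroken run of C and T bases that starts with C at the first transcribed base. Through this tract, mTORC1, the La-related protein LARP1 and the 4E-binding proteins control how strongly the mRNAs are translated, and most ribosomal protein genes are among the most highly transcribed genes of a growing cell.

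The first transcribed bases are shown for the genes on which the results below turn: the P stalk genes, RPSA, the pair of genes that fell, and genes with very short coding sequences. Each window holds 10 bases before and 20 bases from a start site annotated by RefSeq on GRCh38.p14, written 5′ to 3′ on the gene's own strand, and capitals mark the pyrimidine run that begins at the start site.
RPLP0: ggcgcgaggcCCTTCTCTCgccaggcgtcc
RPLP1: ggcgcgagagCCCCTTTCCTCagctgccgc
RPLP2: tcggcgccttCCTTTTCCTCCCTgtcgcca
RPSA: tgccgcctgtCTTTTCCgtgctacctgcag
RPL21: ccgcctctttCCTTTCggccggaaccgcca
RPL14: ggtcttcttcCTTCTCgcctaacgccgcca
RPS27: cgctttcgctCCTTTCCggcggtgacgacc
RPL39: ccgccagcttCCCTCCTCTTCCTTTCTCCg
RPS29: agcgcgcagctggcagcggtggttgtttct
RPS27L: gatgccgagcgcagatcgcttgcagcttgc
The windows lie at chr12:120201092-120201121, minus strand (RPLP0), chr15:69452808-69452837, plus strand (RPLP1), chr11:809957-809986, plus strand (RPLP2), chr3:39406710-39406739, plus strand (RPSA) and chr13:27251548-27251577, plus strand (RPL21). The others lie at chr3:40457329-40457358, plus strand (RPL14), chr1:153990752-153990781, plus strand (RPS27), chrX:119791611-119791640, minus strand (RPL39), chr14:49598691-49598720, minus strand (RPS29) and chr15:63157458-63157487, minus strand (RPS27L). RPL39 had the longest run of the 64 ribosomal protein genes for which a start window was at hand, at 19 bases, and the annotated starts of RPS29 and RPS27L carried no run. A start was counted as TOP when a C stood at the annotated start and the run of C or T from there was at least 5 bases long, read on the gene's strand only. By that count 46 of the 64 genes, or 71.9%, had at least 1 TOP start, against 1404 of all 27305 genes with a window, or 5.14%. Counted by start window the shares were 58.2% of 79 ribosomal protein windows and 4.07% of all 35116 windows. A match describes the annotated start and does not show which start these cells used.

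With docetaxel, 14 ribosomal protein genes rose and 2 fell at an adjusted p under 0.05 (edgeR's quasi-likelihood test with Benjamini-Hochberg adjustment over 18040 genes). These 16 are 20% of the 80 tested, beside 17.0% of all tested genes called in either direction, 9.14% higher and 7.82% lower. Among the 9868 other protein-coding genes that averaged at least 5 CPM, a level nearer to that of ribosomal protein genes, 29.01% were called. The median log2 fold change was 0.05 over the 80 genes and 0.01 over all tested genes, with 52 of the 80 above 0 and 28 below. Docetaxel values lay wholly above control values for 17 of the 80 genes and wholly below for 4, beside 17.0% and 15.0% of all tested genes. The called genes were 1.07-fold to 1.14-fold the control level where they rose, and 0.89-fold and 0.92-fold where they fell. Without docetaxel replicate 2 the median over the 80 genes was -0.01. With relative log expression (RLE) scaling the split was 11 higher and 4 lower, beside 8.35% of all tested genes in each direction. With scaling by library size alone it was 9 higher and 5 lower, beside 6.08% higher and 10.3% lower of all tested genes, which are 1096 and 1866 genes.

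**Figure D1:**
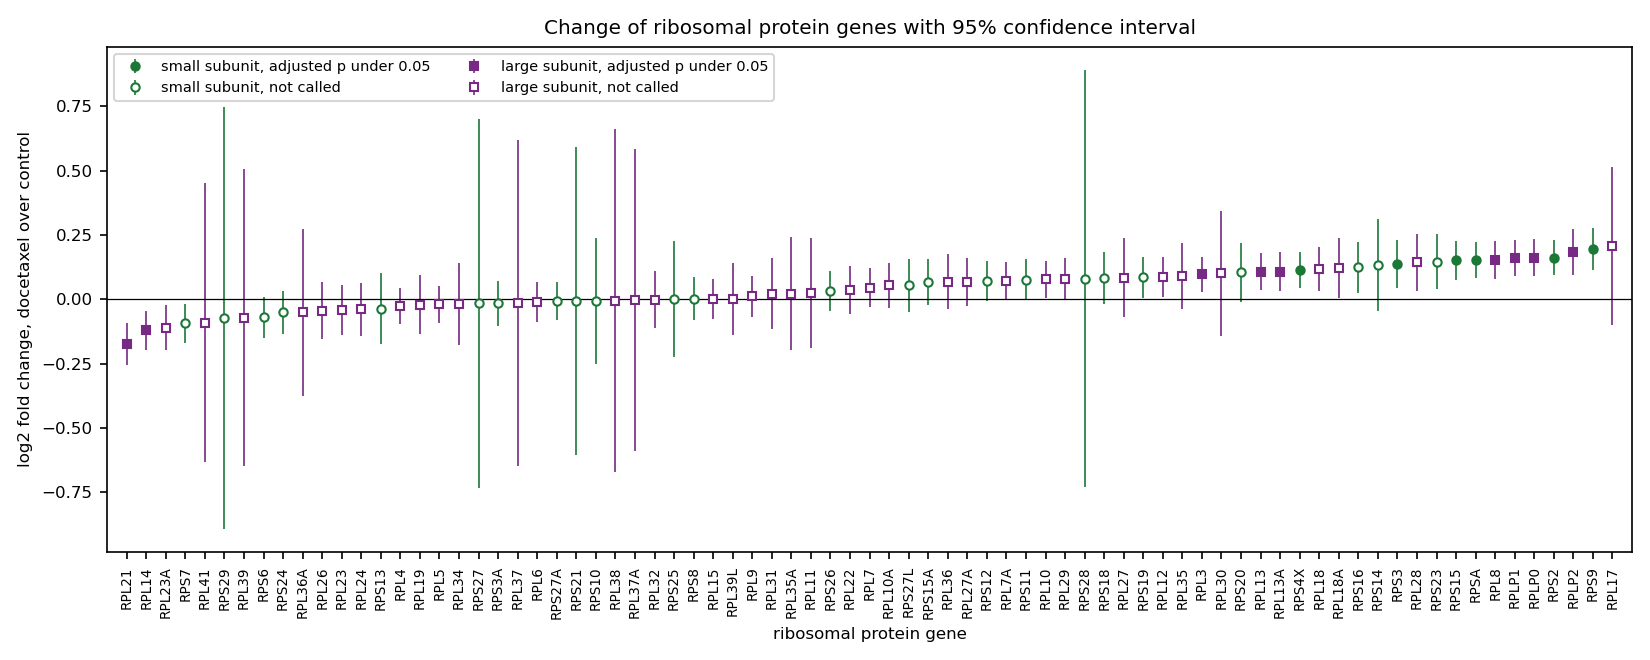
Log2 fold change of docetaxel over control for 77 of the 80 tested ribosomal protein genes in order of the change, with 95% confidence intervals (n = 3 libraries each); circles are small-subunit genes, squares large-subunit genes, and filled symbols passed an adjusted p under 0.05. RPL3L, with too few reads for this scale, and 2 other genes are not drawn. The called genes lie at the ends with narrow intervals, and the widest intervals, such as those of RPS28 and RPS29, belong to genes near 0.

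In the small subunit 7 of 32 tested genes rose and 0 fell, or 21.9% called, near the 17.0% of all tested genes. Without docetaxel replicate 2 the counts were 4 higher and 6 lower, beside 5.78% and 5.14% of all tested genes. RPS2, a protein near the mRNA entry site (ENSG00000140988, chr16:1962052-1964860, minus strand), had 4347, 4214 and 4386 CPM in docetaxel replicates 1 to 3, against 3859, 3777 and 3937 CPM in control replicates 1 to 3. The groups did not overlap, and RPS2 rose with a log2 fold change of 0.16 (SE 0.03, adjusted p = 7.74e-04, edgeR). RPSA, which also serves as a laminin receptor precursor (ENSG00000168028, chr3:39406689-39412542, plus strand), had 2486, 2514 and 2554 CPM with docetaxel, against 2309.6, 2221 and 2267 CPM in control. All 3 docetaxel libraries again lay above all 3 controls, with a log2 fold change of 0.15 (SE 0.03, adjusted p = 0.00170, edgeR). RPS9, an early-binding protein of the small subunit body (ENSG00000170889, chr19:54200742-54249003, plus strand), had 943, 985 and 914 CPM with docetaxel and 869, 777 and 837 CPM in control. Its log2 fold change of 0.19 (SE 0.04, adjusted p = 0.00103, edgeR) was the highest among the called genes of either subunit. RPSA kept its call under all 18 alternative settings, while RPS2 and RPS9 kept theirs under 15 and lost it in the 3 fits with offsets for GC content and length, described below.

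RPS3, a protein at the mRNA entry channel that is also known for a role in DNA repair, had 2269.8, 2590.5 and 2346 CPM with docetaxel and 2305, 2081 and 2174 CPM in control. It was called with a log2 fold change of 0.14 (SE 0.04, adjusted p = 0.0407, edgeR), although docetaxel replicate 1 lay below control replicate 1. Among the other called genes of the small subunit, RPS15 and RPS4X, chosen after their values were seen, had log2 fold changes of 0.15 and 0.11 and no overlap between the groups. RPS15 lost its call without docetaxel replicate 3 and with the offsets, which turned its sign to -0.02. The calls of RPS3 and RPS4X were lost without docetaxel replicate 2, without docetaxel replicate 3 and without control replicate 3, and further losses came without control replicate 2 for RPS3 and without control replicate 1 for RPS4X. Both calls were also lost with library size scaling and with replicate number as a block. That of RPS3 was lost with RLE scaling and in the 3 offset fits too, and that of RPS4X without a filter. RPS6, the phosphorylation target of the S6 kinases, had 1292, 1471 and 1342 CPM with docetaxel and 1458, 1429 and 1422 CPM in control. Its groups overlapped, and its log2 fold change was -0.07 (SE 0.04, adjusted p = 0.257, edgeR).

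In the large subunit 7 of 48 tested genes rose and 2 fell, or 18.8% called, also near the share of all tested genes. All 3 genes of the P stalk, the flexible arm that recruits the translation factor GTPases, were among those that rose. RPLP0, the base of the stalk (ENSG00000089157, chr12:120196686-120201235, minus strand), had 2401, 2641 and 2553 CPM with docetaxel and 2295, 2235 and 2258 CPM in control. RPLP1, which pairs with RPLP2 on that base (ENSG00000137818, chr15:69452784-69456194, plus strand), had 2230.2, 2157 and 2218 CPM with docetaxel and 1951, 1940.2 and 2023 CPM in control. RPLP2 (ENSG00000177600, chr11:809647-812880, plus strand) had 310.3, 274 and 295 CPM with docetaxel and 263, 250.2 and 262 CPM in control. In each of the 3 genes every docetaxel library lay above every control library. The log2 fold change was 0.16 for RPLP0 (SE 0.04, adjusted p = 0.00182, edgeR), 0.16 for RPLP1 (SE 0.03, adjusted p = 0.00134) and 0.18 for RPLP2 (SE 0.04, adjusted p = 0.00339). RPLP1 kept its call under all 18 alternatives, RPLP0 lost it in the 3 offset fits, and RPLP2 lost it in those and without docetaxel replicate 1.

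**Figure D2:**
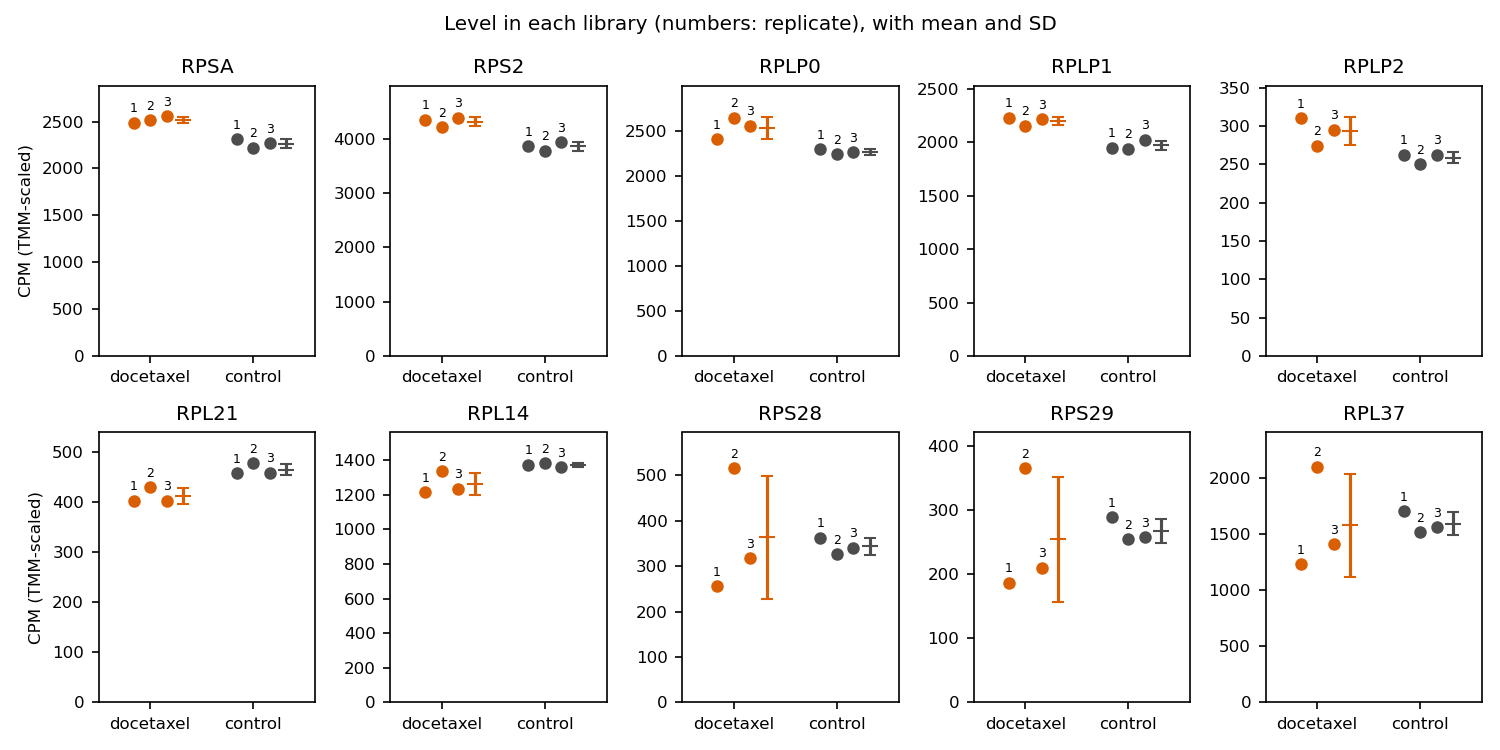
TMM-scaled CPM of 10 ribosomal protein genes in each library, docetaxel left and control right, with replicate numbers above the points and the mean with SD beside them (n = 3 each). In RPSA, RPS2 and the P stalk genes RPLP0, RPLP1 and RPLP2 the docetaxel points lie above the control points, in RPL21 and RPL14 below them, and in RPS28, RPS29 and RPL37 docetaxel replicate 2 lies far above replicates 1 and 3.

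The other called genes of the large subunit were RPL8, RPL13, RPL13A and RPL3. RPL8, a protein near the peptidyl transferase centre, had 3977, 4248 and 4157 CPM with docetaxel and 3886, 3496 and 3752 CPM in control. Its groups did not overlap and its log2 fold change was 0.15 (SE 0.04, adjusted p = 0.00363, edgeR), but with the offsets it turned to -0.04. RPL13A, known outside the ribosome for translational silencing in the interferon response of myeloid cells, had 2592, 2841 and 2646 CPM with docetaxel and 2577, 2418 and 2505 CPM in control. Its log2 fold change was 0.11 (SE 0.04, adjusted p = 0.0401, edgeR). RPL13A and RPL3, at 0.10 (SE 0.03, adjusted p = 0.0463, edgeR), kept their calls under 5 of 18 alternatives, and RPL13, chosen after its value of 0.11 was seen, under 7. Each of these 3 genes lost its call when docetaxel replicate 2, docetaxel replicate 3 or any 1 control replicate was left out, and RPL3 also without docetaxel replicate 1.

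The pair of genes that fell were RPL21 and RPL14. RPL21, which is mutated in a hereditary form of hair loss (ENSG00000122026, chr13:27251309-27256691, plus strand), had 403, 429.8 and 403 CPM with docetaxel and 458, 477 and 459 CPM in control. All 3 docetaxel libraries lay below all 3 controls, and the log2 fold change of -0.17 (SE 0.04, adjusted p = 0.00233, edgeR) stayed called under all 18 alternatives. RPL14 (ENSG00000188846, chr3:40457292-40468587, plus strand) had 1215, 1337 and 1235 CPM with docetaxel and 1374, 1382 and 1359 CPM in control. Its groups did not overlap either, and its log2 fold change was -0.12 (SE 0.04, adjusted p = 0.0235, edgeR). RPL14 kept its call under 9 of 18 alternatives, with -0.01 under the offsets, and lost it without docetaxel replicate 3 or without any 1 of the 3 control replicates. RPL23A, a protein at the exit of the peptide tunnel, came next, with 249, 231 and 256 CPM with docetaxel and 260.1, 268 and 265 CPM in control. Its log2 fold change of -0.11 (SE 0.04, adjusted p = 0.0733, edgeR) missed the threshold, and with the offsets it was -0.13 at an adjusted p of 0.0448.

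RPL5 and RPL11, which form the 5S ribonucleoprotein and, when free, bind MDM2 and stabilise p53, were not called. RPL5 had 1874, 2023 and 1975 CPM with docetaxel and 1977, 2001 and 1974 CPM in control, and RPL11 had 797, 1010.1 and 872 CPM with docetaxel and 907, 846 and 881 CPM in control. The groups overlapped in both genes. The 95% confidence interval of the log2 fold change ran from -0.09 to 0.05 for RPL5 and from -0.19 to 0.24 for RPL11. RPS27A, made as a fusion with ubiquitin, had 1075, 1140.2 and 1113 CPM with docetaxel and 1137, 1089 and 1118 CPM in control, a log2 fold change of -0.01 (SE 0.04, adjusted p = 0.939, edgeR). FAU, made as a fusion of FUBI and RPS30, had a log2 fold change of 0.13 (SE 0.08, adjusted p = 0.306, edgeR).

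Levels between genes were compared as TPM, counts per base of gene length scaled to the same total in every library, from the deposited counts and gene lengths. Mean TPM was highest for RPL8, at 5256 ± 86.00 TPM with docetaxel and 4862 ± 214 TPM in control (SD, n = 3 each). RPS2 followed at 4972 ± 189.7 TPM with docetaxel and 4569.7 ± 19.3 TPM in control. RPS12, a protein of the small subunit head, had 3242 ± 96.2 TPM with docetaxel and 3176 ± 58.3 TPM in control, and RPS18, also of the small subunit head, 2829 ± 181 TPM with docetaxel and 2751 ± 78.8 TPM in control. RPL35, at the tunnel exit, had 2690.1 ± 189 TPM with docetaxel and 2604 ± 107 TPM in control. With docetaxel RPS18 and RPL35 differed by less than the SD of either, so their order there is not resolved. The deposited length counts all exons of a gene, so TPM understates genes with long alternative exons.

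At the low end, RPL17, RPS10 and RPL36A stood far below their partners in a particle that holds most of its proteins in equal number. RPL17 had 5.59, 5.80 and 7.05 CPM with docetaxel and 5.30, 4.93 and 5.75 CPM in control, RPS10 8.97, 10.02 and 8.65 CPM with docetaxel and 8.83, 9.07 and 9.87 CPM in control, and RPL36A 7.51, 5.69 and 5.21 CPM with docetaxel and 6.19, 7.63 and 5.24 CPM in control. In the annotation used here 24.8% of the exon bases of RPL17 are shared with the readthrough gene RPL17-C18orf32, 39.4% of RPS10 with RPS10-NUDT3 and 8.40% of RPL36A with RPL36A-HNRNPH2, and all 3 readthrough genes had 0 reads. The processed pseudogene RPL36AP37 held 2185 reads per 100 reads of RPL36A, and RPS28P7 held 188 per 100 of RPS28, RPL39P3 49.0 per 100 of RPL39, RPL10P9 27.4 per 100 of RPL10 and RPS2P5 17.9 per 100 of RPS2. How reads shared by such copies were assigned is not given in the sources used here, so the levels of these genes are uncertain. None of RPL17, RPS10 and RPL36A was called. Of 1586 pseudogenes named after a ribosomal protein gene, 146 had enough reads to be tested, and 5 were called higher and 0 lower. That is 3.42% of the 146, beside 17.0% of all tested genes.

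The docetaxel libraries differed among themselves more than the controls did in these genes. The SD of log2 CPM between the 3 libraries of a group had a median of 0.098 with docetaxel and 0.035 in control over the 80 genes, and was the larger one with docetaxel in 70 of 80. Over all 18040 tested genes the medians were 0.131 with docetaxel and 0.122 in control. Docetaxel replicate 2 was the highest of the 6 libraries for 60 of the 80 genes, or 75%, beside 20.7% of all tested genes. Docetaxel replicate 1 was the lowest for 35 of the 80 and control replicate 2 for 34, or 43.75% and 42.5%, beside 15.1% and 24.0% of all tested genes. The median deviation from the control mean over the 80 genes was -0.03, 0.15 and 0.02 log2 units in docetaxel replicates 1 to 3, and 0.02, -0.03 and 0.00 in control replicates 1 to 3.

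**Figure D3:**
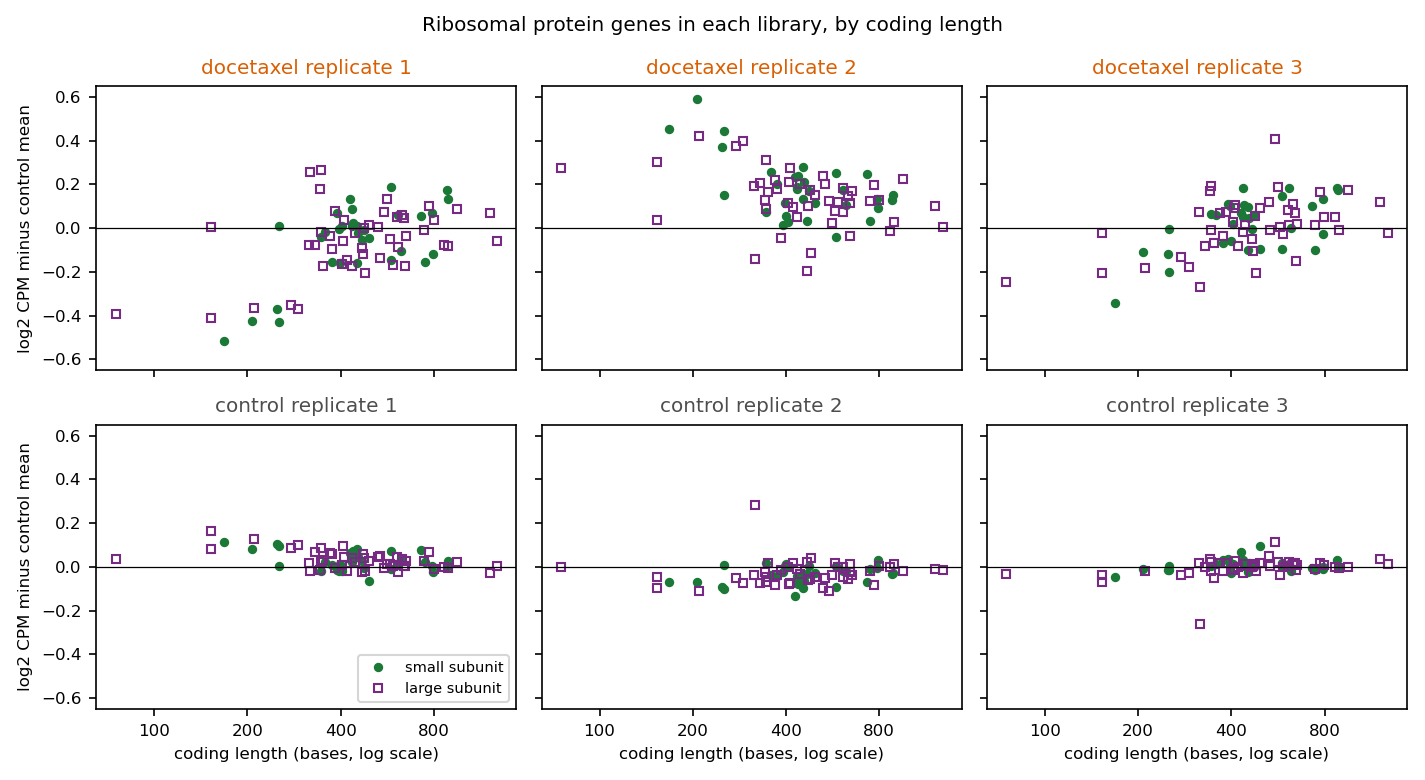
Log2 CPM of 79 ribosomal protein genes minus the mean of the 3 control libraries, by coding length in bases on a log axis, in docetaxel replicates 1 to 3 (top) and control replicates 1 to 3 (bottom); circles are small-subunit and squares large-subunit genes. RPL3L is not drawn. Most genes with coding sequences under 300 bases lie low in docetaxel replicates 1 and 3 and high in docetaxel replicate 2, and near 0 in the controls.

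This spread followed the length of the coding sequence. Of the 11 genes with a coding sequence under 300 bases, 0 were called, beside 17.0% of all tested genes and 24.7% of the 186 other protein-coding genes of that coding length and at least 5 CPM. The median deviations of the 11 genes from the control mean were -0.37, 0.38 and -0.18 log2 units in docetaxel replicates 1 to 3, against 0.10, -0.07 and -0.03 in control replicates 1 to 3. RPS29, a zinc-binding protein of the small subunit head encoded by 168 bases, had 187, 365 and 210.1 CPM with docetaxel and 289, 254 and 258 CPM in control. RPL37, a zinc-binding protein of the large subunit encoded by 291 bases, had 1233, 2103 and 1413 CPM with docetaxel and 1709, 1518 and 1565 CPM in control. RPS28, encoded by 207 bases, had 255, 516 and 318 CPM with docetaxel and 363, 326 and 340.3 CPM in control. In each of these genes, chosen after their values were seen, docetaxel replicate 2 was above and docetaxel replicates 1 and 3 were below every control library. RPL41, the shortest of all at 75 bases, had 397, 629.8 and 439.8 CPM with docetaxel and 534, 520.0 and 509 CPM in control, the same order.

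RPL37A, RPL38, RPL39, RPS21 and RPS27 showed docetaxel replicate 2 highest and docetaxel replicate 1 lowest too, so that replicate 1 was the lowest of the 6 libraries in 9 of the 11 genes, and replicate 2, with RPS27L, the highest in 10. RPS27L and RPL39L, paralogs with the same coding lengths as RPS27 and RPL39, 252 and 153 bases, lacked the low values of docetaxel replicate 1. RPS27L had 94.98, 105 and 93.9 CPM with docetaxel and 94.5, 94.9 and 93.2 CPM in control, and RPL39L had 41.95, 42.8 and 41.1 CPM with docetaxel and 46.8, 39.1 and 39.8 CPM in control. Those 186 other protein-coding genes under 300 bases had median deviations of -0.03, 0.13 and 0.01 in docetaxel replicates 1 to 3. The cause of this order was not tested.

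Without docetaxel replicate 2, 9 ribosomal protein genes were called higher and 14 lower, beside 5.78% and 5.14% of all tested genes, and the median log2 fold change was -0.01. Of those 23 genes 10 were also among the 16 called in all 6 libraries, including RPS2, RPSA, RPS9, the P stalk genes, RPL21 and RPL14. Of the 14 called lower in this fit, 7 were genes with under 300 coding bases, among them RPS29 at -0.44 (edgeR adjusted p = 8.53e-06) and RPL41 at -0.33 (edgeR adjusted p = 1.14e-05). Without docetaxel replicate 1 the counts were 20 higher and 3 lower, beside 7.18% and 9.76% of all tested genes, and without docetaxel replicate 3 they were 7 higher and 1 lower, beside 5.61% and 4.08%. Among longer genes in all 6 libraries, 3 of 27 with 300 to 449 coding bases rose and 0 fell, 4 of 26 with 450 to 649 rose and 2 fell, and 7 of 16 with 650 or more rose and 0 fell. These are 11.1%, 23.1% and 43.75% called in either direction. Of the other protein-coding genes at 5 CPM or more in the same ranges of coding length, 26.5%, 28.8% and 29.3% were called. With 650 or more coding bases, 1291 of those 8425 genes rose and 1174 fell.

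**Figure D4:**
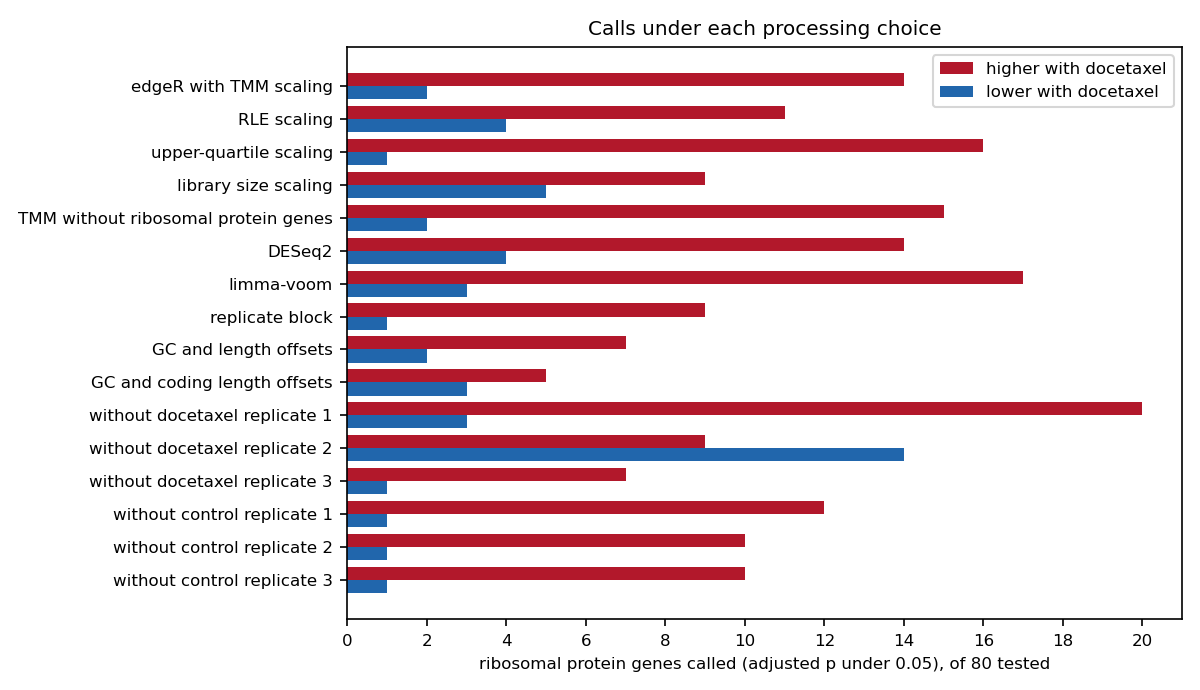
Number of the 80 tested ribosomal protein genes called higher (red, upper bar) and lower (blue, lower bar) with docetaxel at adjusted p under 0.05. The fit by edgeR with TMM scaling is at the top, with other settings below it. Not drawn are the fits without a filter, with 1 CPM required in 3 libraries, and with GC and length offsets joined with the replicate block. The count of higher genes runs from 5 to 20, and the count of lower genes reaches 14 without docetaxel replicate 2.

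The change also followed base composition. Across the 80 genes the log2 fold change had a Spearman correlation of 0.53 and a Pearson correlation of 0.41 with transcript GC content, a description over genes that share the same 6 libraries. Over the 9868 other protein-coding genes at 5 CPM or more the same correlations were 0.77 and 0.72. By GC content, 1 of the 27 ribosomal protein genes lowest in GC rose and 1 fell. Of the middle 26, 3 rose and 1 fell, and of the 27 highest in GC, 10 rose and 0 fell. These are 7.41%, 15.4% and 37.0% called, beside 17.0% of all tested genes, 9.14% higher and 7.82% lower. Calls among other genes of the same GC content were not counted. The median log2 fold changes of the 3 groups were -0.01, 0.01 and 0.11. With offsets that remove each library's trend on GC content and gene length, 7 of the 80 genes were called higher and 2 lower, beside 2.22% and 1.45% of all tested genes, and 4 of these 9 were among the 16 called without offsets. The 4 were RPLP1, at 0.18 (edgeR adjusted p = 1.51e-04), RPSA, at 0.17 (edgeR adjusted p = 2.54e-04), RPS4X, at 0.13 (edgeR adjusted p = 0.00685), and RPL21, at -0.14 (edgeR adjusted p = 0.00887). The other 5 were RPL22, RPL7, RPL9 and RPS27L, called higher, and RPL23A, called lower. With offsets 4 of the 27 genes lowest in GC were called higher and 0 lower, 3 of the middle 26 higher and 2 lower, and 0 of the 27 highest in GC in either direction. The median log2 fold changes of the 3 groups were then 0.060, -0.0033 and -0.0087 from low to high GC, an order turned round from that without offsets. With offsets the log2 fold change of RPS2 was 0.02, that of RPS9 0.06 and that of RPLP2 0.02. Whether the relation to GC content comes from the cells or from the libraries was not tested.

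**Figure D5:**
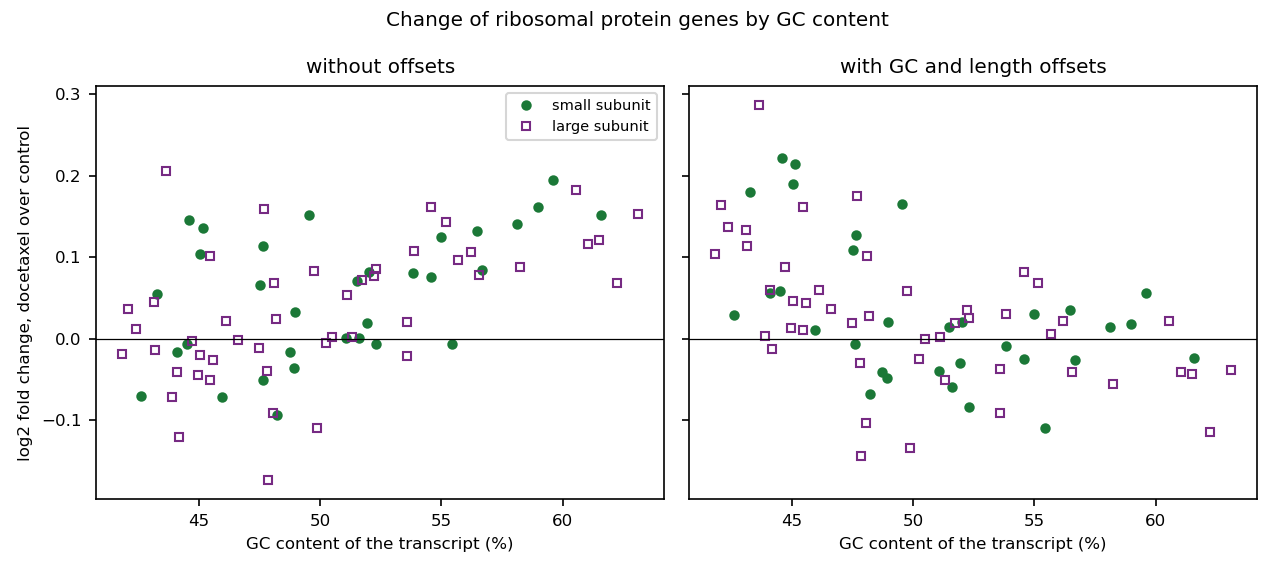
Log2 fold change of docetaxel over control for 79 ribosomal protein genes by GC content of the transcript in percent, without offsets (left) and with offsets for GC content and gene length (right); circles are small-subunit and squares large-subunit genes. RPL3L is not drawn. The values increase with GC content on the left (Spearman 0.53 over all 80), and on the right the GC-rich genes lie near 0 and many GC-poor genes above it.

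As a whole the 81 genes held 8.31, 9.23 and 8.62% of all counts in docetaxel replicates 1 to 3 and 8.71, 8.41 and 8.53% in control replicates 1 to 3. The means were 8.72 ± 0.47% with docetaxel and 8.55 ± 0.15% in control (SD, n = 3 each), and the difference of 0.169 percentage points was smaller than the spread between the docetaxel libraries, which lay on both sides of all controls. Genes of 650 or more coding bases held 3.02 ± 0.055% with docetaxel and 2.91 ± 0.029% in control, with no overlap between the groups, and genes under 300 bases 0.599 ± 0.166% with docetaxel and 0.623 ± 0.034% in control. The mitochondrial ribosomal protein genes, which serve a separate ribosome, held 0.672 ± 0.0135% with docetaxel and 0.658 ± 0.0065% in control. Of their 77 tested members 13 were called higher and 4 lower, or 22.1% called, beside 17.0% of all tested genes.

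Some ribosomal proteins have a paralog gene that codes for a closely related protein. RPL22L1, the paralog of RPL22, fell, with 94.4, 93.2 and 90.95 CPM with docetaxel and 109.8, 111 and 101.8 CPM in control and a log2 fold change of -0.21 (SE 0.05, adjusted p = 0.00268, edgeR). RPL22 itself had 135, 124 and 135 CPM with docetaxel and 127, 127 and 129 CPM in control and was not called. There were 70.0, 75.0 and 67.6 reads of RPL22L1 per 100 reads of RPL22 in docetaxel replicates 1 to 3, and 86.1, 87.3 and 78.7 in control replicates 1 to 3. The call of RPL22L1 was lost with the offsets, at -0.11. RPL3L, a paralog of skeletal and heart muscle, had 12, 21 and 19 reads with docetaxel and 9, 10 and 8 reads in control. Its log2 fold change of 1.03 (SE 0.59, adjusted p = 0.267, edgeR) missed the threshold, although the groups did not overlap. RPL3 itself had 2361, 2414 and 2445 CPM with docetaxel and 2210.2, 2237 and 2306 CPM in control. RPL7L1, RPL26L1, RPL36AL, RPL39L and RPS27L were not called, with log2 fold changes of -0.02, 0.14, 0.07, 0.00 and 0.05.

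By start sequence, 8 of the 46 tested genes with a TOP start rose and 2 fell, 3 of the 17 with a window and no TOP start rose and 0 fell, and 3 of the 17 without a window rose and 0 fell. These are 21.7%, 17.6% and 17.6% called, beside 17.0% of all tested genes. Genes that carry a small nucleolar RNA in an intron, of which 28 were tested, held 7 that rose and 1 that fell, and the other 52 genes also 7 and 1, or 28.6% and 15.4% called. Outside the ribosome, 2 of 20 other tested TOP mRNAs rose and 2 fell, or 20% called. EEF2, the elongation factor that binds at the P stalk, rose with 0.18 (SE 0.03, adjusted p = 4.95e-04, edgeR). NAP1L1, a histone chaperone, fell with -0.15 (SE 0.04, adjusted p = 0.00701, edgeR), and TPT1, a translationally controlled tumour protein chosen after its value was seen, with -0.13. With the offsets NAP1L1 turned to 0.12, EEF2 to 0.03 and TPT1 to -0.04, and none was called. NAP1L1 also lost its call without docetaxel replicate 3, and TPT1 without docetaxel replicate 1, docetaxel replicate 3, control replicate 1 or control replicate 2. The call of TPT1 was lost with upper-quartile scaling and with the replicate block too.

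Of 14 genes that control the translation of TOP mRNAs, 5 rose and 2 fell, or 50% called. Of all tested genes 17.0% were called, 9.14% higher and 7.82% lower. LARP4, a La-related protein that protects mRNA tails, had 79.3, 70.9 and 71.6 CPM with docetaxel and 98.1, 111 and 100.7 CPM in control. It fell with a log2 fold change of -0.48 (SE 0.05, adjusted p = 4.02e-07, edgeR), and with the offsets the value was -0.20 (edgeR adjusted p = 0.00401). MLST8, a subunit of both mTOR complexes, and EIF4EBP1, a 4E-binding protein that mTORC1 inactivates, rose by 0.24 and 0.20, and with the offsets the values were 0.05 and -0.02 and were not called. Of 12 tested chaperones and nuclear import receptors of ribosomal proteins, 2 rose and 3 fell, or 41.7% called, beside the same shares. Those that fell were the import receptors TNPO1 at -0.30, IPO7 at -0.25 and KPNB1 at -0.24, of which KPNB1 kept the call in all 3 offset fits, at -0.15. TNPO1, at -0.13 with the offsets, lost it where they were joined with the replicate block, and IPO7 lost it in all 3, at -0.02 with the offsets for GC content and gene length. Those that rose, chosen after their values were seen, were AAMP at 0.24 and GRWD1, a chaperone of RPL3, at 0.19, and both lost their calls with the offsets.

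Among genes that build the subunits, 5 of 41 of the small subunit processome and 40S assembly rose and 3 fell, or 19.5% called. Of 41 genes of 60S assembly 9 rose and 4 fell, or 31.7% called. Of all tested genes 17.0% were called, 9.14% higher and 7.82% lower. Of the other protein-coding genes at 5 CPM or more, 29.01% were called. PES1, of the PeBoW complex, had 344, 349 and 338 CPM with docetaxel and 303, 269.6 and 291 CPM in control and rose with 0.25 (SE 0.04, adjusted p = 1.07e-04, edgeR), and kept its call with the offsets at 0.13. NOC2L, a nucleolar assembly factor, PELP1, of the complex that processes the internal spacer, and RRP9 and WDR46 of the small subunit processome rose by 0.21, 0.21, 0.24 and 0.21, and WDR43 of the processome fell by 0.21 on the log2 scale. These 5 calls were lost with the offsets. Of 22 tested genes of small nucleolar ribonucleoproteins and the nucleolar core, 9.09% were called, beside 17.0% of all tested genes. FBL, the methyltransferase fibrillarin, rose by 0.16, and POLR1F, a subunit of RNA polymerase I, fell by 0.36 on the log2 scale. RRN3, an initiation factor of that polymerase, had a log2 fold change of -0.17 (SE 0.07, adjusted p = 0.0721, edgeR). The calls of FBL and POLR1F were lost with the offsets, and that of POLR1F also without docetaxel replicate 2, control replicate 2 or control replicate 3.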

How the data were processed

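The authors deposited 1 table of raw counts per gene for poly(A)-enriched RNA, sequenced as paired reads of 150 bases, per the labels. Per the submitters' processing notes, featureCounts 2.0.1 and MultiQC 1.11 were used, with build GRCh38. Which aligner, annotation release, strand and multi-mapping settings were used is not given in the sources used here, so counts of near-identical paralogs, pseudogenes and readthrough genes are uncertain. The gene length column of the table, in bases, is as deposited, per the file headers.

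Columns were matched to samples by library name. Symbols were found for 61481 of 78932 rows, and coordinates from GENCODE release 29 (GRCh38) for 57356. Genes kept by filterByExpr were compared with edgeR 4.0.16 (R 4.3.3), using TMM scaling, robust glmQLFit and two-sided glmQLFTest, adjusted by Benjamini-Hochberg over 18040 genes and called under 0.05. The biological coefficient of variation common to all genes was 0.0759. CPM are TMM-scaled, except those of the line markers, which use total counts. Each SE was derived from the log2 fold change and the F statistic of the test. GC content is that of 1 principal transcript per gene, which can hold long noncoding exons (7686 bases for RPL37), so coding length served as the measure of gene size.

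The steps were run on simulated counts with the same dispersion for all genes, no trend on GC content or length and no deviating library. The planted changes were larger than those of the called ribosomal protein genes, so that run does not cover changes as small as theirs. Pairs of libraries within a group differed by a Poisson dispersion index of 4.92 to 12.7, so no library repeated another. Results were recomputed with scaling by RLE, upper quartile, library size or TMM without the ribosomal protein genes, with DESeq2 1.42.0 and limma-voom (limma 3.58.1), without a filter or with 1 CPM required in 3 libraries, with replicate number as a block, with loess offsets (span 0.5) for GC content and gene length with and without that block, and without each library in turn. Offsets with coding length were added after the data were seen. The members, gene lists, naming rule and alternatives were chosen with earlier results of these data known. Named were the called genes with the smallest p, the extremes of change and of TPM, genes picked by role, paralog pairs and up to 3 genes per list. In most places the text marks genes named outside this rule. RPL41, RPL37A, RPL38, RPS21, RPL9, RPL36 and the pseudogenes were also named after values were seen. A few results for single genes are not reported here.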

Additional observations from a re-analysis of the deposited data

How the results depend on the processing

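In all 6 libraries 14 ribosomal protein genes were called higher and 2 lower. The count of higher genes was 7 with GC and length offsets, 5 with those offsets and the replicate block, 5 with GC and coding length offsets, 9 with library size scaling and 9 with the replicate block, and ran from 7 to 20 when 1 library was left out. The count of lower genes was 4 with DESeq2 and with RLE scaling, 5 with library size scaling, 1 with upper-quartile scaling, 1 with the replicate block, 1 with the offsets and the block together, and 1 to 14 when 1 library was left out. Over all tested genes, 1649 higher and 1410 lower became 400 and 262 with GC and length offsets, 388 and 312 with coding length, and 287 and 207 with offsets and block. Library size scaling gave 1096 higher, and leaving out 1 library gave 990 to 1397 higher and 740 to 1841 lower.

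Deviations from the group mean correlated at -0.11, -0.13 and 0.07 between same-numbered libraries of the groups, and at -0.09 to 0.18 between libraries of other numbers. With 3 libraries per group these values cannot tell whether the numbers pair the samples. The 10 genes called with the replicate block were all among the 16. The median log2 fold change of the ribosomal protein genes moved from its value of 0.05 by less than the spread between libraries (SD 0.07) in all 18 alternatives, which ran from -0.01 without docetaxel replicate 2 to 0.09 without docetaxel replicate 1. The share of counts held by these genes, docetaxel minus control, was 0.169 percentage points, 0.401 with TMM-scaled counts, and -0.0872 to 0.376 when 1 library was left out.

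With GC and length offsets, with those and the block, and with coding length offsets, the log2 fold change was -0.038 in each for RPL8, -0.023, -0.024 and -0.032 for RPS15, 0.12, 0.12 and 0.078 for NAP1L1, and -0.023, -0.023 and -0.029 for EIF4EBP1. With coding length offsets it was -0.0070 for RPL13, -0.13 for RPL36 and 0.0056 for IPO7. The cause of these changes was not tested. Of the other single-gene values under the alternatives, 1516 kept their direction and side of the threshold, 139 lost the call, 59 gained one and 177 uncalled values changed sign. With all 6 libraries the 95% intervals of 9 of the 11 genes under 300 coding bases, all but RPS27L and RPL39L, reached log2 changes of 0.45 or more either way, while 7 of the 11 were called lower without docetaxel replicate 2.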
